A study of Homo sapiens with 31 samples.

Results

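HT-29, an established colorectal adenocarcinoma cell line, was diluted at the level of RNA into CCD841CoN, the line of the series that the labels call normal. The series mixed HT-29 and 3 other colorectal cancer lines, LoVo, LS1034 and HCT116, into CCD841CoN in labelled proportions. Such mixtures let a tumour share and a tumour profile be computed from mixed RNA and set against the label. The HT-29 dilution series is 10 of its 31 libraries: unmixed CCD841CoN (0%, n = 3), mixtures of 0.1, 1, 10 and 50% HT-29 RNA (1 library each) and unmixed HT-29 (100%, n = 3). Libraries were taken by their labels, and no measured value entered the choice. Both lines come from the large intestine, were grown in RPMI-1640 or DMEM with serum and had no treatment or engineered change, and CCD841CoN makes up the rest of every mixture. The labels do not say whether the 3 libraries of an end point came from separate cultures, so p-values measure the spread between these libraries, which may be technical.

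Epithelial cells build tight junctions, adherens junctions and a keratin skeleton, and colonic ones add a brush border, mucins and the nuclear factors that keep intestinal identity. Fibroblasts secrete collagens and carry a vimentin skeleton. Genes made by 1 of the lines and silent in the other act as tracers, so their level in a mixture can be set against the share of that line's RNA.

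The end points were first checked against such markers. EPCAM, the epithelial adhesion molecule, stood at 1522, 1182 and 1464 CPM (counts per 1000000 counts of a library, after TMM scaling) in HT-29 and at 0.368, 0 and 0 CPM in CCD841CoN. COL1A1, the more abundant type I collagen chain, had 2.07, 2.44 and 5.36 CPM in HT-29, against 7654, 9852 and 10240 CPM in CCD841CoN. Of 8 defining epithelial markers, EPCAM, CDH1, KRT20, VIL1 and CDX2 were at or near 0 in CCD841CoN, while the keratins KRT8, KRT18 and KRT19 had counts there. CCD841CoN thus carried collagen and lacked the leading genes of colonic epithelium, which its labels do not say. PTPRC, the pan-leukocyte marker, had no count in CCD841CoN. VWF, the endothelial clotting factor carrier, reached at most 1.38 CPM there. PTPRC and VWF are single members of their lists, and other members had counts. The 15 immune and blood genes counted summed to 14.8, 57.1 and 56.3 CPM in CCD841CoN. The 10 endothelial genes counted summed to 454, 536 and 512 CPM there.

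Depth limits what the lowest mixtures can show. The mixtures held 21810293, 18279320, 19193973 and 54714765 counts from the lowest to the highest percentage, HT-29 held 28732096, 24936733 and 10800329, and CCD841CoN held 24640112, 11664065 and 9688765. A count of 0 allows a level of up to 0.156, 0.187, 0.167 and 0.0519 CPM (3 counts) in the mixtures of 0.1, 1, 10 and 50%. CCD841CoN replicate 1 stood apart from replicates 2 and 3, and HT-29 replicate 3 from replicates 1 and 2. HT-29 replicate 2 differed as well: 1454 genes had no count there, against 3010 in the deeper replicate 1 and 4092 in replicate 3. Mitochondrially encoded genes took 1.12, 0.762 and 0.113% of the counts in HT-29, 0.205 to 0.323% in the mixtures and 0.275 to 0.312% in CCD841CoN.

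The summed level of HT-29 markers was higher at each labelled percentage, and above what the label gives. The 653 HT-29 markers are genes called higher in HT-29 than in CCD841CoN with a log2 fold change of at least 5 and at least 5 CPM in HT-29, chosen on the unmixed libraries. Their sum put the HT-29 share at 0.264, 2.26, 18.0 and 59.5% in the mixtures labelled 0.1, 1, 10 and 50%. Over the 9 pairs of an HT-29 and a CCD841CoN library the shares ran over 0.229 to 0.313%, 2.17 to 2.40%, 17.4 to 18.7% and 57.7 to 62.0%. Each labelled value lay below its range. The ratio of share to label was 2.64, 2.26, 1.80 and 1.19. The steps between neighbouring mixtures were 8.59-fold, 7.93-fold and 3.31-fold, where the labels give 10-fold, 10-fold and 5-fold. The same sum gave -0.0369, 0.00889 and 0.0280% in the CCD841CoN libraries themselves.

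Counting error was small beside this gap at every level. Its 95% intervals were 0.249 to 0.279%, 2.23 to 2.30%, 17.9 to 18.0% and 59.4 to 59.6%, from 9305, 28627, 215133 and 2247007 marker counts. Such intervals and count floors cover counting error alone, since the counts hold no molecular identifiers. A share over single markers came out lower: its median over the 653 genes was 0, 1.84, 15.6 and 50.9%, with quartiles of -0.0513 to 0.477%, 0.597 to 2.92%, 11.6 to 20.4% and 38.1 to 63.6%. The median lay near the label at 50% and at 0 in the 0.1% mixture. Seen from the other side, the 849 CCD841CoN markers (the same rule in the other direction) lost 7.05, 7.95, 26.1 and 67.9% of their summed level, where the CCD841CoN libraries differed from their own mean by 7.46, -3.53 and -3.93%. The loss at 0.1 and 1% was therefore not distinguishable from the spread between CCD841CoN libraries. RNA amounts that were not mixed as labelled and messenger RNA content that differs between the lines were not tested as causes.

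**Figure D1:**
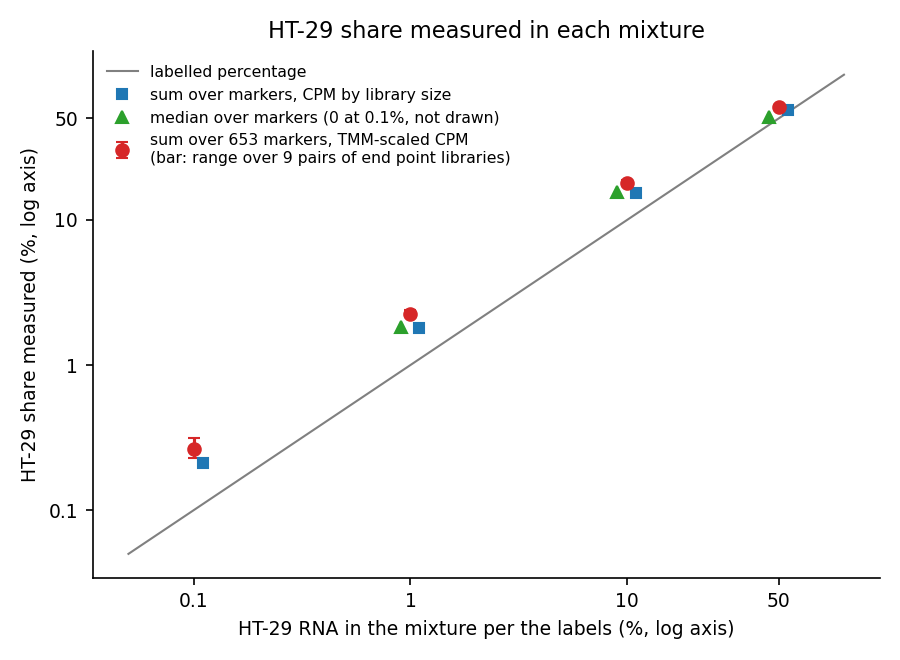
HT-29 share (%) in each mixture against the labelled percentage of HT-29 RNA, both on log axes: circles show the sum over 653 markers with the range over 9 pairs of end point libraries as bars, squares the same sum without TMM scaling, triangles the median over markers, and the line the label. The circles at 0.264, 2.26, 18.0 and 59.5% lie above the line, farthest at 0.1%.

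The number of genes called higher than in CCD841CoN grew at every level. Of 15463 genes tested with edgeR's quasi-likelihood test (Benjamini-Hochberg adjusted p below 0.05), 13 were called higher in the 0.1% mixture (0.0841%), 181 in the 1% mixture (1.17%), 648 in the 10% mixture (4.19%) and 1421 in the 50% mixture (9.19%). None was called lower at 0.1 and 1%, 1 at 10% (0.00647%) and 100 at 50% (0.647%). The 100 fell to 66, 24 and 24 without CCD841CoN replicate 1, 2 and 3 in turn. At an unadjusted p below 0.05, 358 and 597 genes in either direction passed at 0.1 and 1%. Both are fewer than this threshold would pass among 15463 genes without any change if the p-values were uniform. With 1 library per mixture that was not shown, so these counts neither show nor exclude further change. Unmixed HT-29 had 3843 genes higher (24.9%) and 3647 lower (23.6%), or 4984 higher and 2992 lower when libraries were scaled by size alone, which moved the median of all genes by 0.32 on the log2 scale (0.12 at 50%). These comparisons share the CCD841CoN libraries as control. A mixture of 1 library enters the test with the spread of the triplicates.

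The 13 genes called at 0.1% included surface and secreted products of gut epithelium. LYZ, the antibacterial enzyme lysozyme, had 124 counts in the 0.1% mixture and no count in CCD841CoN. Its level was 0, 0 and 0 CPM in CCD841CoN, 6.43, 53.2, 385 and 1289 CPM in the mixtures of 0.1, 1, 10 and 50%, and 2493, 1762 and 2220 CPM in HT-29. No mixture overlapped CCD841CoN, and each level stood above the one before it. The fold at 0.1% was at least 87.1 (3 counts over the CCD841CoN libraries; edgeR adjusted p = 0.00364). EPCAM had 119 counts in the 0.1% mixture, against 8, 0 and 0 counts in CCD841CoN. It ran at 6.17, 37.4, 255 and 892 CPM through the mixtures, 50.4-fold over the mean CPM of CCD841CoN and 31.3-fold over its pooled counts at 0.1% (adjusted p = 0.00758). GPX2, a glutathione peroxidase of the gut epithelium, had 67 counts in the 0.1% mixture and none in CCD841CoN (at least 47.1-fold, adjusted p = 0.00758), and ran at 3.48, 28.4, 194 and 650 CPM.

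ST14, a membrane serine protease of epithelia, had 48 counts at 0.1%, against 2 in CCD841CoN (50.6-fold over the pooled counts, counting interval 14 to 418, adjusted p = 0.00869). TSPAN8, a tetraspanin of gut epithelium, had 64 against 1 (135-fold over the pooled counts, 24.2 to 5326, adjusted p = 0.0179). LGALS4, an intestinal galectin, had 65 against 1 (137-fold over the pooled counts, 24.6 to 5409, adjusted p = 0.0244). The other genes called were CXADR (a junction protein that serves as a virus receptor, 31 counts), TINAGL1 (39 counts), LAD1 (a basement membrane anchor, 25), CRABP2 (a retinoic acid carrier, 24), INPP5D (an inositol phosphatase, 16), RNF43 (a ubiquitin ligase that removes Wnt receptors, 16) and BSPRY (10). Of these, CRABP2 had 1 count in CCD841CoN and the rest had none. Their adjusted p ran over 0.0177 to 0.0460. At 1% the same genes had 71, 82, 166, 216, 29, 60 and 12 counts in the order given, where the computed share rose 8.59-fold. CXADR, TINAGL1, INPP5D and BSPRY rose far less than the share, so their counts at 0.1% do not measure it. INPP5D averaged 27.3 CPM in HT-29.

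The call at 0.1% rested on the CCD841CoN libraries used. Without CCD841CoN replicate 1, 2 or 3 in turn, 2, 3 and 5 genes were called, LYZ and EPCAM among them each time. In a fit of the 10 libraries EPCAM was not called (adjusted p = 0.0606). GPX2 was lost without replicate 1 (adjusted p = 0.0707), ST14 and CXADR without replicate 1 or 2, and the other 8 without any 1 of the 3. With CCD841CoN replicate 1 as the sole control none was called, and LYZ and EPCAM both had an adjusted p of 0.28. The counts by list at 0.1% given below for epithelial, intestinal, secretory and Wnt genes came to 0 with that control. Some of these transcripts also appeared in the 0.1% mixtures of the other lines: EPCAM had 133 counts with LoVo RNA, 130 with LS1034 RNA and 18 with HCT116 RNA, and TSPAN8 had 106, 54 and 0. LYZ and BSPRY had no count in any of the 3.

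**Figure D2:**
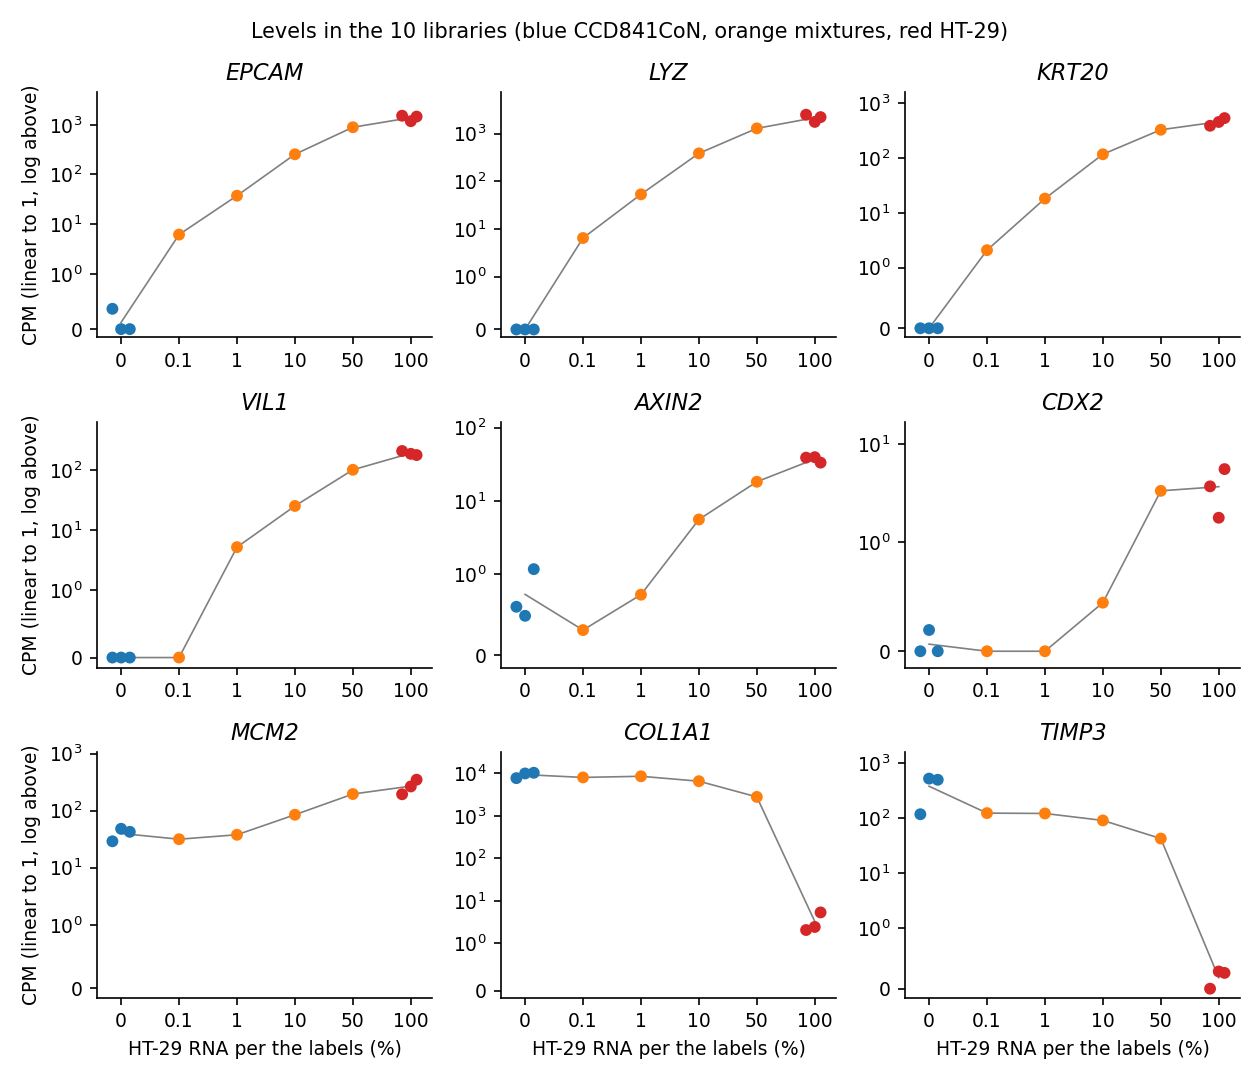
Level (CPM, linear up to 1 and log above) of 9 named genes in the 10 libraries by percentage of HT-29 RNA on an evenly spaced axis: points are libraries (CCD841CoN blue, mixtures orange, HT-29 red) and lines join the group means. EPCAM and LYZ were called from 0.1%, KRT20 and VIL1 from 1%, AXIN2 from 10% and CDX2 at 50%, while COL1A1 lay at 6487 to 8460 CPM in the mixtures of 0.1, 1 and 10% and at 2772 CPM in that of 50%.

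Of 34 genes of epithelial junctions and keratins, 2 were called higher at 0.1%, 20 at 1%, 30 at 10%, 32 at 50% and 33 in HT-29. Their median log2 fold change was 0.93, 3.88, 6.75, 8.64 and 9.15 at these levels, where the median of all genes tested lay between -0.03 and 0.01. Genes with no count in a group entered these medians at the floor of 3 counts. CDH1, the adherens junction cadherin, stood at 0.230, 0.0973 and 0.466 CPM in CCD841CoN, at 2.54, 10.2, 69.0 and 185 CPM in the mixtures, and at 563, 459 and 326 CPM in HT-29. It lay above every CCD841CoN library from 0.1% and was called from 1% (log2 fold change 5.33 ± 0.57 SE, edgeR adjusted p = 6.38e-05). CLDN7, a tight junction claudin, stood at 0.460, 0.876 and 0.700 CPM in CCD841CoN and at 1.04, 9.7, 60.2 and 219 CPM in the mixtures (3.90 ± 0.49 at 1%, adjusted p = 0.000255). CLDN4, another claudin, was called at 1% (4.81 ± 0.90, adjusted p = 0.00828), but not without CCD841CoN replicate 2 (adjusted p = 0.0512). ELF3, an epithelial transcription factor, and PRSS8, a membrane-anchored protease, were also called at 1% (adjusted p = 0.00281 and 0.00163).

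Keratins differed in their level in CCD841CoN and in the percentage at which they were called. KRT8, the type II keratin of simple epithelia, stood at 11.6, 13.0 and 13.4 CPM in CCD841CoN, at 40.1, 250, 1993 and 6851 CPM in the mixtures, and at 5546, 5818 and 11733 CPM in HT-29. It rose at 1% (4.30 ± 0.54, adjusted p = 0.000243). KRT18, its type I partner, stood at 226, 287 and 276 CPM in CCD841CoN and at 245, 392, 1450 and 4433 CPM in the mixtures, so that the 0.1% value fell within the CCD841CoN range. KRT18 was called from 10% (2.46 ± 0.49, adjusted p = 0.00388, and 0.108 with CCD841CoN replicate 1 as the sole control). KRT19, another keratin of simple epithelia, was also called from 10% (2.91 ± 0.51, adjusted p = 0.00118). KRT8 and KRT18 have many processed pseudogenes, and how reads shared with them were counted is not given in the sources used here. KRT7, a keratin of ducts and glands, went the other way. It stood at 61.6, 126 and 121 CPM in CCD841CoN, at 56.7, 63.3, 47.6 and 21.1 CPM in the mixtures and at 5.02, 5.16 and 5.1 CPM in HT-29, where it was called lower (-4.33 ± 1.00, adjusted p = 0.00183). ESRP1, the splicing factor of epithelial cells, had no count in CCD841CoN. It reached 0.208, 1.12, 19.8 and 59.8 CPM in the mixtures and passed the threshold from 10% (adjusted p = 1.18e-05, against 0.0502 at 1%).

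Of 24 genes of intestinal identity, 3, 7, 13 and 15 were called higher at 0.1, 1, 10 and 50%, and 19 higher and 1 lower in HT-29. Their median log2 fold change was 0, 0.77, 3.86, 4.63 and 5.80 at the same levels. KRT20, the keratin of differentiated intestinal cells, had no count in CCD841CoN and stood at 2.08, 18.2, 118 and 331 CPM in the mixtures and at 391, 458 and 540 CPM in HT-29. Its fold was at least 28.1 at 0.1%, where the test did not call it (adjusted p = 0.0688), and at least 247 at 1%, where it was called (adjusted p = 0.000123). VIL1, the actin bundler of the brush border, had no count in CCD841CoN or at 0.1%, and 5.22, 25.1 and 99.9 CPM at 1, 10 and 50% (at least 70.7-fold at 1%, adjusted p = 0.000201). At the share of the 0.1% mixture, VIL1 was expected at 0.495 CPM, above the level that a count of 0 allows.

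Nuclear factors of intestinal identity were called at different percentages. HNF4A, a nuclear receptor of gut and liver, was called from 1% (1.49 CPM against no count in CCD841CoN, adjusted p = 0.00258), and CDX2, the homeobox factor of intestinal identity, at 50% (3.32 CPM against 0, 0.195 and 0 CPM, adjusted p = 0.000181). In HT-29 HNF4A averaged 41.6 ± 15 CPM and CDX2 3.66 ± 1.88 CPM (SD, n = 3 each). FABP1, a fatty acid carrier of absorptive cells, reached 0.675 CPM at 50% without a call (adjusted p = 0.0866) and was called in HT-29 (9.54, 1.95 and 1.90 CPM, adjusted p = 0.000261).

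Of 24 tested genes of goblet cell, secretory and defence products, 1, 4, 12 and 16 were called higher at 0.1, 1, 10 and 50%, and 19 in HT-29, with a median log2 fold change of 0, 0.13, 3.82, 5.43 and 7.29. AGR2, the disulfide isomerase that folds mucins, had no count in CCD841CoN. It stood at 1.82, 15.5, 158 and 537 CPM in the mixtures and at 892, 657 and 900 CPM in HT-29, and was called from 1% (adjusted p = 7.65e-05). GCNT3, a mucin glycosyltransferase, and REG4, a secreted lectin of enteroendocrine and goblet cells, were called at 1% (adjusted p = 0.0148 and 0.0106), but not without CCD841CoN replicate 1 (adjusted p = 0.0923 and 0.0801), which left 2 of the list at 1%. SPDEF, a factor of goblet cell maturation, TFF3, the goblet cell trefoil peptide, and MUC13, a membrane mucin, were called from 10%. They stood there at 8.67, 6.62 and 11.1 CPM (edgeR adjusted p = 0.000312, 0.000152 and 1.12e-05). DESeq2 gave SPDEF an adjusted p of 1. MUC2, the gel-forming mucin of the colon, had no count up to 10%. It stood at 0.433 CPM at 50% (adjusted p = 0.067) and was called in HT-29 at 2.86, 8.49 and 1.04 CPM (adjusted p = 0.000146).

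Wnt targets and stem cell genes were called in both directions. Of 22, 1, 1, 8 and 11 were called higher at 0.1, 1, 10 and 50% and 14 in HT-29, while 2 were called lower at 50% and 6 in HT-29. The 6 are close to the 23.6% of all genes called lower in HT-29. Their median log2 fold change was -0.03, 0.02, 1.35, 2.14 and 3.13. AXIN2, a feedback inhibitor of the pathway, stood at 0.598, 0.487 and 1.17 CPM in CCD841CoN, at 0.311, 0.746, 5.56 and 18.2 CPM in the mixtures and at 38.8, 39.4 and 33.2 CPM in HT-29. Its values at 0.1 and 1% did not exceed the CCD841CoN range, and it was called from 10% (2.94 ± 0.44, adjusted p = 0.000237). MYC, a growth-promoting transcription factor, was at 93.3 CPM in the 10% mixture (adjusted p = 0.343) and was called at 50%, with 240 CPM against 39.8, 35.6 and 45.9 CPM in CCD841CoN (2.57 ± 0.46, adjusted p = 0.000873, and 0.0527 with CCD841CoN replicate 1 as the sole control). LEF1, a nuclear partner of beta-catenin, was called lower at 50%, with 2.60 CPM against 13.2, 30.0 and 33.8 CPM (-3.30 ± 0.93, adjusted p = 0.0299). APCDD1, a secreted Wnt inhibitor, was lower too, with 1.37 CPM against 6.44, 19.1 and 26.4 CPM (-3.65 ± 0.97, adjusted p = 0.0248). Both calls were lost without CCD841CoN replicate 2 (adjusted p = 0.0682 for LEF1 and 0.0537 for APCDD1) or replicate 3 (0.0735 and 0.0597). With CCD841CoN replicate 1 as the sole control they stood at 0.318 and 0.302.

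CEACAM genes encode adhesion molecules of the carcinoembryonic antigen family, and near-identical members can split reads. Of 8 tested, 0, 1, 2 and 4 were called higher at 0.1, 1, 10 and 50%, and 5 in HT-29, with a median log2 fold change of 0, 0, 1.70, 4.12 and 4.95. CEACAM6 had no count in CCD841CoN and stood at 0.778, 3.92, 18.7 and 54.6 CPM in the mixtures (1%, adjusted p = 0.000588). CEACAM1 was called from 10% (13.3 CPM against 0.276, 1.36 and 0.233 CPM, adjusted p = 0.000199). CEACAM5, the serum tumour marker, had no count at 0.1 and 1% and reached 0.778 CPM at 10% (adjusted p = 0.104). It was called at 50% with 5.04 CPM (adjusted p = 0.00043).

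Of 22 genes of EGF receptor signalling and MAPK output, 0, 3, 5 and 6 were called higher at 0.1, 1, 10 and 50%, and 9 higher and 1 lower in HT-29. The median log2 fold change of the list was -0.03, -0.01, -0.18, -0.05 and 0.74. TGFA, a ligand of the receptor, had no count in CCD841CoN or at 0.1%, and stood at 3.48, 14.3 and 39.1 CPM at 1, 10 and 50% (1%, adjusted p = 3.89e-05). ERBB3, a receptor of the same family, was called from 1% (3.73 CPM against 0.276, 0 and 0 CPM, adjusted p = 0.00104). EREG, another ligand, stood at 1.76, 2.92, 25.1 and 80.2 CPM in the mixtures and was called at 1% (adjusted p = 0.0218), but not without CCD841CoN replicate 1 (0.173) or 3 (0.0772). It was also not called with the 0.1% mixtures as control (edgeR adjusted p = 0.934) or in a fit of the 10 libraries (0.166). It had 34 counts at 0.1% and 47 at 1%.

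Of 28 genes of lipid, sugar and xenobiotic metabolism, 0, 2, 7 and 9 were called higher at 0.1, 1, 10 and 50%, and 16 higher and 3 lower in HT-29. Without CCD841CoN replicate 1, 1 was called at 1%. FBP1, the gluconeogenic fructose bisphosphatase, had no count in CCD841CoN or at 0.1%, and stood at 2.05, 20.2 and 62.9 CPM at 1, 10 and 50% (1%, adjusted p = 0.00256). ACSL5, which activates long-chain fatty acids, stood at 5.88, 4.87 and 3.96 CPM in CCD841CoN and at 6.54, 13.8, 78.2 and 236 CPM in the mixtures. It exceeded every CCD841CoN library from 0.1%, and the test called it from 10% (3.98 ± 0.38, adjusted p = 2.1e-06, against 0.119 at 1%).

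Cell cycle genes, which both lines express, were called mainly at 50%. Of 32, none was called by edgeR at 0.1, 1 and 10% (2 at 10% without CCD841CoN replicate 1), 16 were called higher at 50%, and 30 in HT-29, with a median log2 fold change of 0.19, 0.32, 0.73, 1.52 and 1.72. At 50%, 13 were called by DESeq2, 13 with scaling by library size, and 1 with CCD841CoN replicate 1 as the sole control, which also left 14 of the 30 in HT-29. MCM2, a subunit of the replicative helicase, stood at 29.1, 48.1 and 42.6 CPM in CCD841CoN, at 31.6, 37.8, 84.7 and 195 CPM in the mixtures and at 194, 265 and 348 CPM in HT-29. It was called at 50% (2.29 ± 0.55, adjusted p = 0.0108), but not without CCD841CoN replicate 1 (0.0511). CDK1, the mitotic kinase, stood at 261 CPM in the 50% mixture, against 72.3, 66.8 and 65.9 CPM in CCD841CoN (1.94 ± 0.41, adjusted p = 0.00399, and 0.142 with CCD841CoN replicate 1 as the sole control). MKI67, the proliferation antigen Ki-67, stood at 122 CPM at 50%, against 27.3, 9.05 and 11 CPM (2.94 ± 0.56, adjusted p = 0.00156, and 0.131 with replicate 1 as the sole control). CCD841CoN replicate 1 stood above the other CCD841CoN libraries for CDK1 and MKI67, but below them for MCM2.

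**Figure D3:**
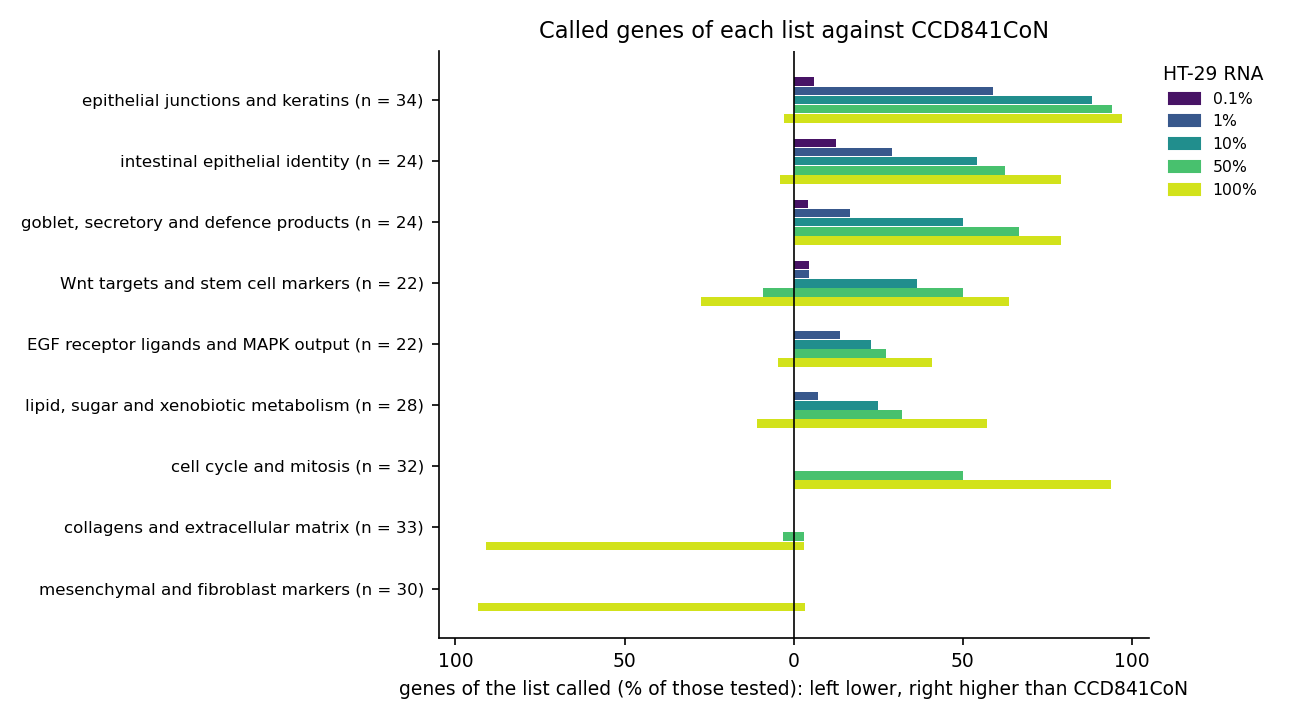
Percentage of the tested members of 9 gene lists called higher (right of 0) or lower (left of 0) than in CCD841CoN by edgeR at each percentage of HT-29 RNA, with unmixed HT-29 as 100%. Epithelial junctions and keratins had 20, 30 and 32 of 34 genes higher at 1, 10 and 50%, cell cycle genes 16 of 32 at 50%, and matrix genes 30 of 33 lower at 100% after 1 at 50%.

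Fewer genes were called on the CCD841CoN side of the mixtures, which the design largely sets. By dilution a gene made by CCD841CoN alone can fall only by the share of RNA replaced. A gene absent there has no such limit to its rise. At the shares of 0.264, 2.26 and 18.0% that fall is small, so lower calls up to 10% were hardly possible. Of 33 collagen and matrix genes, none was called lower up to 10%, 1 at 50% and 30 in HT-29, although their median log2 fold change was -0.11, -0.14, -0.44, -1.69 and -9.46. COL1A1 stood at 7957, 8460, 6487 and 2772 CPM in the mixtures. The 2772 CPM of the 50% mixture lay below every CCD841CoN library, but the difference did not pass the test (-1.74 ± 1.06, adjusted p = 0.338). TIMP3, an inhibitor of matrix proteases, was the member called lower at 50%, with 42.4 CPM against 118, 526 and 501 CPM (-3.17 ± 0.89, adjusted p = 0.0309). The call was lost without CCD841CoN replicate 2 (0.0788) or 3 (0.0746), and stood at 0.489 with replicate 1 alone. BGN, a matrix proteoglycan, went against its list: it stood at 2.85, 2.92 and 1.98 CPM in CCD841CoN, at 1.66, 2.18, 8.51 and 17.3 CPM in the mixtures and at 24.9, 23.9 and 30.6 CPM in HT-29 (50%, 2.73 ± 0.60, adjusted p = 0.00682, and 0.196 with CCD841CoN replicate 1 as the sole control).

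Of 30 mesenchymal and fibroblast genes, none was called in any mixture, and 1 was called higher and 28 lower in HT-29. Their median log2 fold change was -0.08, -0.06, -0.38, -1.57 and -8.77. VIM, which encodes vimentin, was at 1589, 1234 and 1211 CPM in CCD841CoN, at 1492, 1405, 1134 and 501 CPM in the mixtures and at 0.827, 0.743 and 1.81 CPM in HT-29. At 50% it did not pass the test (-1.42 ± 0.52, adjusted p = 0.105). S100A4, a calcium-binding protein of motile cells, was the member called higher in HT-29 (1.24 ± 0.36, adjusted p = 0.00913), though not without CCD841CoN replicate 1 (0.0524). It stood at 180, 171 and 148 CPM in HT-29, against 43.5, 88.3 and 80.0 CPM in CCD841CoN.

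Over all 849 CCD841CoN markers, 841 stood below every CCD841CoN library in the 50% mixture and 587 in the 10% mixture, and 18 were called lower at 50%. Their median log2 fold change at 50% was -1.61, with a median SE of 0.88. Of the 100 genes called lower at 50%, 11 had no count in the mixture, and 60 were also called lower with the 0.1% mixtures as control, which gave 108. With CCD841CoN replicate 1 as the sole control 3 genes were called lower, all among the 100. TMEM132B, the gene called lower at 10%, had no count in that mixture, against 1.15, 1.17 and 4.78 CPM in CCD841CoN (adjusted p = 0.0463, and 0.0902 without CCD841CoN replicate 3).

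Other lists had more calls in unmixed HT-29 than in the mixtures, where 24.9% of all genes were called higher and 23.6% lower in HT-29. Of 25 p53 targets, 1 was called higher and 12 lower in HT-29. CDKN1A, which encodes the p21 inhibitor of cyclin kinases, was at 57.4, 109 and 37.9 CPM in HT-29, against 2362, 1668 and 1563 CPM in CCD841CoN (adjusted p = 7.03e-07), and at 844 CPM in the 50% mixture. Of 21 antigen presentation genes, 1 was called higher and 1 lower at 50%, and 2 higher and 12 lower in HT-29. ERAP1, a peptide-trimming enzyme, was the one called lower at 50%, with 18.9 CPM against 50.8, 65.6 and 57.4 CPM, while HT-29 held 24.3, 19.8 and 14.1 CPM. That call was lost without any 1 of the CCD841CoN libraries (adjusted p of 0.0617, 0.106 and 0.0842 without replicate 1, 2 and 3). Of 20 widely used reference genes, 11 were called higher and 2 lower in HT-29, and 1 in all with CCD841CoN replicate 1 as the sole control. Of 13 mitochondrially encoded genes 2 were called higher in HT-29, against 6 without HT-29 replicate 3 and 1 with any other end point library left out. Of the lists for other cell types, 1 of 9 endothelial markers was called higher and 2 lower in HT-29, and 5 of 8 smooth muscle and neural markers lower. The 2 endothelial markers called lower are near the share over all genes. Of 10 immune and blood markers 2 were called each way, and the 2 higher ones were lost without any 1 of the CCD841CoN libraries or without HT-29 replicate 2.

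A gene was said to show in a mixture at 10 or more counts and at 2 or more times the CCD841CoN mean, a rule without a test. Of the 653 HT-29 markers, 106 (16.2%) showed at 0.1%, 342 (52.4%) at 1%, 623 (95.4%) at 10% and 653 (100%) at 50%. In the CCD841CoN libraries themselves 21, 8 and 3 did. These counts are low in part by construction. The markers were chosen for a low level in those libraries, and each library enters the mean it is set against. CCD841CoN replicates 2 and 3 were also shallower than the mixtures. The CCD841CoN counts are therefore not a fair background for the mixtures. The rule did not find more genes at 0.1% than in the 0.1% mixture of LoVo. There 108 of the same genes showed, against 88 for LS1034 and 27 for HCT116. The rule depends on depth, and these 0.1% libraries held 21810293 counts for HT-29, 44128160 for LoVo, 20693547 for LS1034 and 13075811 for HCT116. From 1% up the HT-29 mixture held more than the others: 266, 266 and 182 showed at 1%, 481, 508 and 335 at 10%, and 516, 537 and 425 at 50% in the mixtures of LoVo, LS1034 and HCT116. At 50% the HT-29 library was the deepest, with 54714765 counts against 20761949, 16116508 and 14442619, while at 1 and 10% LoVo had 48429004 and 56741879 counts, against 18279320 and 19193973 for HT-29.

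The level at which a marker first showed, and then showed at every higher percentage, went with its level in HT-29 (CPM without correction for length, which is what sets the counts). It was 0.1% for 89 markers, 1% for 251, 10% for 283 and 50% for 30, with a median HT-29 level of 123, 60.4, 17.2 and 6.73 CPM. Of 216 markers at 5 to 20 CPM in HT-29, 7.41% showed at 0.1%, 14.4% at 1% and 86.1% at 10%. Of 198 markers at 50 to 200 CPM, 20.7% showed at 0.1%, 82.8% at 1% and 100% at 10%. Of 17 markers over 500 CPM, a thin class, 82.4% showed at 0.1 and at 1%. The 3 late ones, KRT19, SLC12A2 (an ion cotransporter) and STARD10 (a lipid carrier), had counts in CCD841CoN. Among the 29 epithelial markers the first level was 0.1% for 13, 1% for 11, 10% for 4 and 50% for 1. For the 11 intestinal ones it was 4, 5, 2 and 0, and for the 13 secretory ones 3, 4, 6 and 0.

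**Figure D4:**
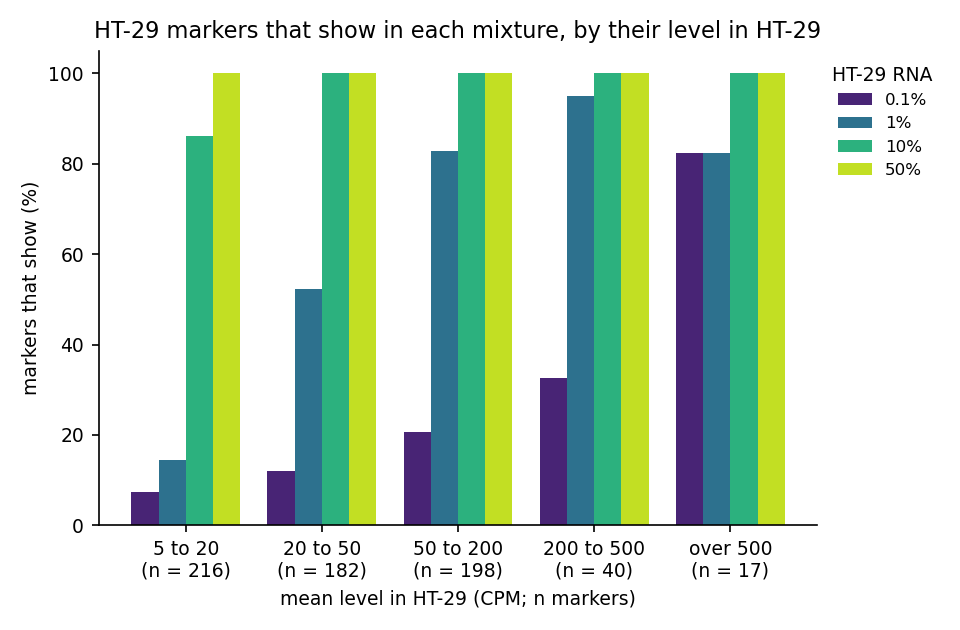
Percentage of HT-29 markers that show (10 or more counts and 2 or more times the CCD841CoN mean) in each mixture, as bars grouped by the marker's mean level in HT-29 (CPM). At 0.1% HT-29 RNA 7.41% of the markers at 5 to 20 CPM and 82.4% of those over 500 CPM showed, and at 50% all markers of all classes.

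Low counts in the lowest mixture fell unevenly. Of the 290 markers with no count in CCD841CoN, 194, 66, 1 and 0 had no count at 0.1, 1, 10 and 50%. At 0.1%, 129 of them were expected at 1 to 5 counts from the share (median 2.16). Of these, 91 had no count, and 16 had over 3 times the expected number. Of 27 expected at 5 to 10 counts, 7 had none, and of 15 expected at 10 to 50, 2 had none. At 1%, of 117 expected at 10 to 50 counts, 5 had none and 0 had over 3 times the expected number. With 1 library at this level, how far the list of genes would repeat was not tested.

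The trend across the 4 mixtures, tested without either end point in the contrast, was higher for 984 genes (6.36%) and lower for 20 (0.129%). The split was 1208 and 186 by DESeq2, 1376 and 210 in a fit of the 10 libraries, and 1189 and 8 with scaling by library size. Of the 653 HT-29 markers 583 were called rising, and of the 849 CCD841CoN markers 1 was called falling. The markers went up at the first step in 506, at the second in 639 and at the last in 646, and at every step in 493. The slope for LYZ was 2.58 ± 0.28 log2 units per step (edgeR adjusted p = 3.48e-05) and for EPCAM 2.43 ± 0.28 (adjusted p = 2.78e-05). The labelled percentages have a slope of 3.02 per step and the computed shares 2.64. The 57 markers of 200 CPM or more had a median slope of 2.46 (quartiles 2.0 to 2.74). For genes with no count at 0.1% the slope depends on how a count of 0 is treated: VIL1 had 4.53 ± 0.44 (adjusted p = 1.4e-05), TGFA 4.10 ± 0.33 (adjusted p = 5.73e-06) and FBP1 4.43 ± 0.50 (adjusted p = 4.84e-05). MYC, MCM2 and CDK1, which start from a level in CCD841CoN, also passed (adjusted p = 0.0151, 0.0363 and 0.0347), but not without the 50% mixture (0.992, 1 and 1).

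Genes far higher in HT-29 than in the other lines can separate its mixtures from theirs. The 47 genes of at least 10 CPM in HT-29 and at least 20 times the mean of every other line, chosen on the unmixed libraries, include LYZ, TM4SF4 (a tetraspan membrane protein), AKR1B10 (an aldo-keto reductase), MMP7 (the protease matrilysin) and CA9 (a carbonic anhydrase). Some are not silent elsewhere: AKR1B10 averaged 346 CPM in HT-29, against 10.2 CPM in LoVo and 6.60 CPM in CCD841CoN, and CA9 averaged 283 CPM in HT-29, against 12.1 CPM in LS1034. Their summed level was 41.4, 181, 1233 and 4160 CPM in the HT-29 mixtures of 0.1, 1, 10 and 50%. It was 19.0, 17.9, 20.5 and 24.3 CPM in those of LoVo, 11.6, 17.2, 17.6 and 51.5 CPM in those of LS1034, 16.8, 19.6, 14.4 and 18.2 CPM in those of HCT116, and 16.4, 21.1 and 17.5 CPM in CCD841CoN. At equal percentages the HT-29 mixture stood above those of the other lines, and at every percentage above CCD841CoN. The 51.5 CPM of the 50% LS1034 mixture exceeded the 41.4 CPM of the 0.1% HT-29 mixture. Of that 41.4 CPM, AKR1B10 held 12.9 CPM. AKR1B10 was no higher in the 1% HT-29 mixture (11.8 CPM). Against the mean of the other 3 mixtures at the same percentage, edgeR called 108 genes higher at 1% (0.698%), 190 at 10% (1.23%) and 286 at 50% (1.85%), and 0 genes lower at 1%, 7 at 10% (0.0453%) and 52 at 50% (0.336%). Of the 47, it called 17, 41 and 44, and that direction follows from how they were chosen.

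**Figure D5:**
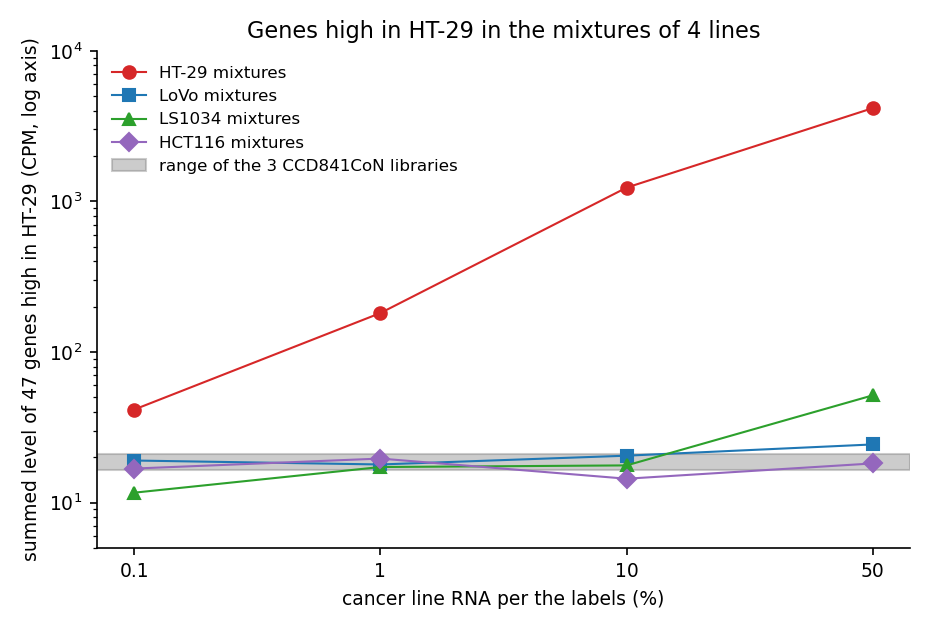
Summed level (CPM, log axis) of the same 47 genes against the labelled percentage of cancer line RNA in the mixtures of 4 lines, 1 point per library, with the range of the 3 CCD841CoN libraries as a grey band. The HT-29 mixtures lie at 41.4, 181, 1233 and 4160 CPM, and the others between 11.6 and 51.5 CPM.

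Most genes lay near the weighted sum of the end points. At the shares of 0.264 and 2.26% this blend is almost the CCD841CoN mean itself. Nearness at 0.1 and 1% was therefore largely set in advance and says little about the sum. With the labelled percentage as the share, 32 genes lay outside at 0.1%, against 30. Among genes of at least 20 CPM, the level lay outside 2-fold of the blend computed from the share for 30 of 7621 genes at 0.1% (0.394%), 22 of 7643 at 1% (0.288%), 36 of 7840 at 10% (0.459%) and 127 of 8060 at 50% (1.58%). Without CCD841CoN replicate 1 these counts were 107, 83, 86 and 163, and without HT-29 replicate 3 they were 30, 22, 54 and 352. Without HT-29 replicate 2 there were 74 at 50%. Without CCD841CoN replicate 2 or 3 there were 16 and 18 at 0.1%, 14 and 17 at 1%, and 25 and 23 at 10%. At 50%, 126 of the 127 were below the blend. Outside 2-fold for all 9 pairs of end point libraries were 1 gene at 0.1% (SAMD1), 0 at 1%, 0 at 10% and 1 at 50% (FOSB). FOSB, a growth-induced transcription factor, stood at 16.3, 374 and 1.90 CPM in HT-29 and 0 CPM in CCD841CoN. Its level in the 50% mixture was 0.398 CPM, where the mean of HT-29 gives 77.7 CPM and HT-29 replicate 3 gives 1.12 CPM. EGR1, another growth-induced factor, stood at 8.53 CPM at 50%, where the means give 62.2 CPM and HT-29 replicate 3 with CCD841CoN replicate 1 gives 11.9 CPM.

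By correlation over all genes the mixtures were closest to HT-29 replicate 3 and CCD841CoN replicate 1. Across 15463 genes, Pearson's r on log2(CPM + 1) was highest with HT-29 replicate 3 (0.718, 0.742, 0.813 and 0.909 for 0.1, 1, 10 and 50%) and with CCD841CoN replicate 1 (0.994, 0.991, 0.965 and 0.896). HT-29 replicate 2 was close behind at 0.1 and 1% (0.717 and 0.740). These mixtures are almost all CCD841CoN RNA, so r there cannot tell which HT-29 library they resemble. CCD841CoN replicate 1 was also the deepest, with 24640112 counts against 11664065 and 9688765. The effect of depth on r was not tested. The genes are not independent, and this is a description. MMP1, a collagenase, stood at 31, 43.2, 30.9 and 15.8 CPM in the mixtures and at 38.9, 270 and 273 CPM in CCD841CoN. In 27 genes with CCD841CoN replicates 2 and 3 at 2 or more times replicate 1, the median ratio of the mixtures to the blend made with replicate 1 was 1.06, 1.07, 1.05 and 0.843. In 14 genes with HT-29 replicates 1 and 2 at 2 or more times replicate 3, the median ratio of the mixtures to the blend made with replicate 3 was 1.18 at 10% and 1.04 at 50%. At 1% these genes went the other way, with ratios of 0.700 and 0.691 to the blends with replicates 1 and 2, against 1.76 with replicate 3, and at 0.1% all 3 ratios were below 1 (0.159, 0.132 and 0.326). In 3 genes with replicate 3 at 2 or more times the others the ratios with replicate 3 were 1.01 and 1.01 at 10 and 50%, but at 1% they were 1.13 and 1.17 with replicates 1 and 2, against 0.542 with replicate 3. With HT-29 replicate 3 and CCD841CoN replicate 1 as end points, 2, 3, 0 and 1 genes lay outside 2-fold at 0.1, 1, 10 and 50%. Whether the mixtures were made from the RNA of these libraries is not given in the labels and was not tested.

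Subtracting the CCD841CoN share from a mixture left part of the genes near their HT-29 level. The percentages within 2-fold were not computed before the subtraction, so they do not measure what it added. Of 7375 genes of at least 20 CPM in HT-29, 2.74% came within 2-fold of the HT-29 mean at 0.1%, 16.8% at 1%, 70.3% at 10% and 88.2% at 50%. The subtraction left 3348, 2501, 740 and 106 genes below 0. For the 437 HT-29 markers among them, 20.6, 67.0, 91.5 and 93.4% came within 2-fold, and for the 2800 genes higher in CCD841CoN than in HT-29 0.786, 7.25, 51.3 and 80.9%. The markers entered the computation of the share, so their own recovery is partly set by it. Across the 7375 genes, Spearman's coefficient with HT-29 was 0.149, 0.299, 0.689 and 0.881 after the subtraction, with values below 0 set to 0. Before it the coefficient was 0.586, 0.606, 0.716 and 0.881. By this measure the subtraction brought no level closer to HT-29: the coefficient was lower after it at 0.1, 1 and 10% and no higher at 50%.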

How the data were processed

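The deposited table holds raw read counts of 17113 protein-coding genes in 31 libraries. Per the labels, libraries were made from total RNA with a stranded Roche KAPA kit after removal of ribosomal RNA. Per the submitters' processing notes, the authors aligned reads to hg19 with STAR and counted them with featureCounts. Versions and the strand setting of the counting are not given in the sources used here.

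All 31 libraries were fitted together in edgeR 4.0.16 (R 4.3.3, limma 3.58.1; quasi-likelihood, TMM scaling, filterByExpr), with 21 groups and 10 residual degrees of freedom, so a mixture of 1 library is assumed to vary like the triplicates. A gene was called at a Benjamini-Hochberg adjusted p below 0.05. The trend is a linear contrast over the 4 mixtures on the log scale, with equal steps. DESeq2 1.42.0 was the other tool. Shares, blends and figures used TMM-scaled CPM in Python 3.11.15 (numpy 2.4.6, pandas 2.3.3, scipy 1.17.1, matplotlib 3.10.9). A fold is the mean CPM of the mixture divided by that of CCD841CoN. Where CCD841CoN had no count, 3 counts over its libraries took its place and the fold is a lower bound. For 1 to 3 counts the fold is taken over the pooled counts of the 3 libraries, with a 95% counting interval. The scripts were tested on simulated counts.

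The libraries, the 17 gene lists and the rules were chosen with earlier results of these data known. Named genes come from the lists, from the 10 called genes with the largest change per comparison and from the genes farthest from the blend, and the part of them printed was chosen after their values were seen. Results for some genes are not reported here. Alternatives were other scalings, no filter, DESeq2, the 10 libraries alone, the 0.1% mixtures as control, other marker rules and each end point library left out. Single end point libraries were added after seeing the data. HT-29 and CCD841CoN share replicate numbers, and the residuals of equal numbers correlated at 0.016, -0.054 and -0.050. These values showed no pairing of the lines, but they cannot exclude a batch shared by replicate number. With that number as a block over the 15 unmixed libraries, 8270 genes were called in HT-29, against 7484 without it.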

Additional observations from a re-analysis of the deposited data

Results flagged for a closer look

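The mixtures of HT-29 differed from those of the other lines at the same percentage, by edgeR's test of the difference itself (HT-29 against the mean of LoVo, LS1034 and HCT116, adjusted p below 0.05, 1 library per line). At 1% 108 genes differed, all higher in the HT-29 mixture. At 10% 197 differed, 190 higher and 7 lower, and at 50% 338 differed, 286 higher and 52 lower. The 3 comparisons share no mixture.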

How the results depend on the processing

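Over the named genes and alternatives no direction reversed, 583 values kept their call and 100 lost it. Genes called at 0.1% numbered 13, but 42 by DESeq2 (38 higher, 4 lower), 6 in a fit of the 10 libraries, 2 to 5 without 1 CCD841CoN library and 0 with CCD841CoN replicate 1 alone. That control gave 110 genes at 1%, 777 at 50% and 4394 for HT-29. The fit of the 10 libraries gave 2854 at 50% (2130 higher, 724 lower) and 1586 for the trend (1376 higher, 210 lower). The trend had 6866 genes over all 6 levels and 407 without the 50% mixture. At 50% DESeq2 called 1459 higher and 655 lower, scaling by library size 1813 and 37, and the 0.1% mixtures as control 1721 and 108.

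HT-29 shares at 0.1, 1, 10 and 50% were 0.212, 1.81, 15.3 and 57.2% by library size, 0, 1.84, 15.6 and 50.9% as the median over markers, and 7.05, 7.95, 26.1 and 67.9% from the loss of CCD841CoN markers. Markers 20 times every other cancer line gave 0.342 and 2.36% at 0.1 and 1%, markers of log2 fold change 8 gave 2.35% at 1%, and HT-29 replicate 3 with CCD841CoN replicate 1 gave 0.298% at 0.1%. Markers that show at 0.1% numbered 170 at 5 counts, 53 at 20 counts and 66 at 5 times CCD841CoN.

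Genes outside the blend numbered 9, 8, 11 and 64 at 50 CPM, and 35 and 72 with the labelled share at 1 and 10%. They numbered 2, 3, 0 and 1 with HT-29 replicate 3 and CCD841CoN replicate 1. Leaving out 1 library gave 24 to 66 lower genes at 50%, and outside the blend 16 to 107 at 0.1%, 14 to 83 at 1%, 23 to 86 at 10% and 74 to 352 at 50%. The highest values came without CCD841CoN replicate 1, and at 50% without HT-29 replicate 3. The recovered percentage was 1.14, 7.48 and 47.1% with the labelled share at 0.1, 1 and 10%, and 3.58 and 76.3% at 50 CPM at 0.1 and 10%. With HT-29 replicate 3 and CCD841CoN replicate 1 it was 3.52, 21.6 and 95.5% at 0.1, 1 and 50%, and leaving out 1 library gave 81.0 to 90.8% at 50%, lowest without HT-29 replicate 3. The causes were not tested.

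With the replicate number as a block over the 15 unmixed libraries, 8270 genes were called in HT-29 (4488 higher, 3782 lower), against 4109 higher and 3375 lower without it. The mixtures carry no replicate number, so no paired analysis was possible because each has 1 library. Depth limits the 0.1% mixture most, where 194 of 290 markers without a CCD841CoN count had none.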
